A study of Homo sapiens with 4 samples.

Results

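YAP1 and WWTR1 (the protein TAZ), their DNA-binding partner TEAD1, the kinase LATS2 and 6 genes known as YAP/TAZ targets were examined in SNU-668, a human cell line from gastric cancer. These 10 genes were chosen by symbol, under older names where the table has them, from 16692 genes in the expression table. Ribosome footprints, the mRNA fragments that translating ribosomes protect from RNase, were counted per gene, together with RNA. All cells were SNU-668 described as resistant to erastin, a blocker of cystine uptake, although the library names carry RLS3. The compared conditions were shRNA to ALKBH3, whose product is a demethylase of DNA and RNA, and a control shRNA (genotype label WT). There was 1 library per assay and condition, so every difference below is between single libraries, without a test or a p-value.

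The footprint libraries held 3795680 (control) and 3742513 counts, and the RNA libraries 554075 and 689375. ALKBH3 itself had 14 footprints in the control and 22 in the library labelled ALKBH3 knockdown, a log2 ratio of 0.59 with a 95% counting interval of -0.37 to 1.54, and 0 RNA counts in each. These counts show no lower ALKBH3, and the label is used below only as a name. Of the markers of the labelled gastric epithelium, EPCAM had 0 and 2 footprints, KRT19 4 and 3, CLDN4 8 and 0, ESRP1 0 and 1, KRT8 17 and 15, TFF2 3 and 1, and MUC6 and CLDN18 0 in each, while KRT18 had 462 and 538. The mesenchymal genes VIM (23326 and 16521), FN1 (20180 and 25647) and CDH2 (2058 and 2768) were abundant, whereas SNAI2 had 168 and 233, ZEB2 80 and 99, and ZEB1 2 and 2. Of the leukocyte genes, PTPRC was at 0 in each and CD68 had 762 and 745. Among fibroblast genes, COL1A2 had 24916 and 21822, COL1A1 1001 and 663, PDGFRB 193 and 277, PDGFRA 116 and 106, and LUM 2 and 1. Among endothelial genes, VWF had 13 and 15 and KDR 0 and 1. Of 7 epithelial markers looked for by symbol, 6 had a row in the expression table and CDH1 had none. Of 8 gastric lineage markers, 3 had a row. Footprints come from bulk cells, in which fewer cells and fewer footprints per cell cannot be told apart.

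In the Hippo pathway, the kinases encoded by STK3 and STK4 activate LATS1 and LATS2, which phosphorylate YAP and TAZ and so keep them out of the nucleus or mark them for degradation. Unphosphorylated YAP and TAZ enter the nucleus, bind TEAD factors and drive genes of matrix, adhesion and growth. Some of the targets, such as LATS2 and AMOTL2, restrain YAP and TAZ in turn. In epithelial cancers the pathway responds to cell density, matrix stiffness and loss of polarity.

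The 10 genes did not move together. In the library labelled ALKBH3 knockdown, TEAD1 carried 1.83-fold more footprints than in the control and ANKRD1 1.28-fold more, while CTGF carried 1.41-fold fewer and CYR61 1.39-fold fewer. THBS1 differed by 1.03-fold, and the coactivators YAP1 and WWTR1 had intervals that held no difference. A log2 ratio below is the library labelled ALKBH3 knockdown over the control, on library totals scaled by TMM, with its 95% counting interval in brackets. All 10 genes reached the minimum of 100 footprints over both libraries that 7050 genes reached. Intervals lay above 0 for 3 of the 10 genes, where 18.2% of all measured genes did so, and below 0 for 4, where 22.3% did. No gene of the 10 was 2-fold apart, which 0.879% (higher) and 0.426% (lower) of all measured genes were. The median over the 10 genes was -0.07, beside -0.02 over all measured genes.

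Counting intervals do not include the spread between libraries. The standard deviation of the ratios over all 7050 genes was 0.362, while the median counting error was 0.145. Scaling also moved the zero: the median over all genes was -0.02 with TMM and 0.10 with the deposited RPKM (reads scaled to gene length and library size), a shift of 0.12, and the share of intervals clear of 0 that lay above it went from 44.9% to 69.3%, or 59.1% with plain totals. The place of a gene among the 7050 log2 ratios, given below as a percentile, is not moved by a scaling of whole libraries.

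**Figure D1:**
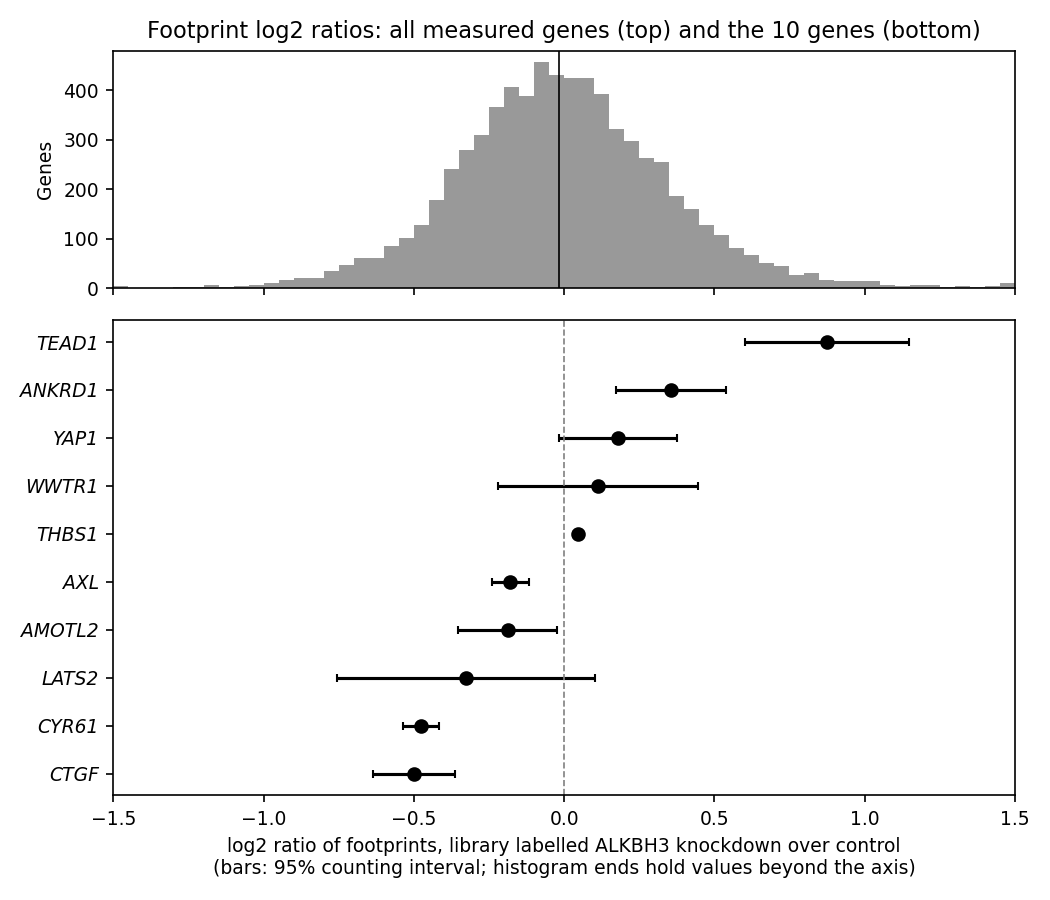
Top, histogram of the footprint log2 ratio (library labelled ALKBH3 knockdown over control) of 7050 genes with at least 100 footprints, with their median of -0.02 as a line. Bottom, the same ratio for the 10 genes with 95% counting intervals (1 library per condition): TEAD1 lies furthest right at 0.87 and CTGF furthest left at -0.50.

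The coactivators and their DNA-binding partners came first. YAP1 (ENSG00000137693, chr11:101981192-102104154, plus strand, hg19 here and for the genes that follow) had 389 footprints in the control and 455 in the other library. Its log2 ratio was 0.18 (-0.02 to 0.37), at percentile 72.5. WWTR1 (ENSG00000018408, chr3:149235022-149421060, minus strand) had 136 and 152 footprints, at 0.11 (-0.22 to 0.45) and percentile 65.6. Both coactivators thus held 0 in their intervals, and the ratios of these paralogs differed by 0.07 (-0.32 to 0.45), a difference that library scaling cannot move. The YAP1 interval cleared 0 under 3 other scalings, with ratios of 0.20 to 0.30.

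TEAD1 (ENSG00000187079, chr11:12766588-12965490, plus strand), which encodes the DNA-binding factor that brings YAP and TAZ to promoters, had 163 footprints in the control and 309 in the library labelled ALKBH3 knockdown. The log2 ratio was 0.87 (0.60 to 1.15), the highest of the 10 genes and at percentile 98.6 of all measured genes. It ran from 0.86 to 0.99 over 9 settings. The other TEAD genes encode factors that bind the same DNA element, and none had an interval clear of 0. TEAD2 had 81 and 77 footprints (-0.12, -0.57 to 0.33), TEAD3 69 and 89 (0.32, -0.13 to 0.77) and TEAD4 75 and 86 (0.15, -0.30 to 0.59). The TEAD1 ratio exceeded that of TEAD2 by 0.99 (0.47 to 1.52), that of TEAD4 by 0.72 (0.20 to 1.25) and that of TEAD3 by 0.56 (0.03 to 1.08). In the deposited RPKM, TEAD1 went from 18.8 to 37.6 while the other TEAD genes lay between 7.81 and 13.8 in either library, so TEAD1 had the highest level of the 4 TEAD genes in each. VGLL3, a TEAD cofactor, had 31 and 49 footprints, below the minimum, and VGLL1 was not analysed here. Of the 8 genes on this list of coactivators and TEAD factors, 7 had a row in the expression table.

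LATS2 (ENSG00000150457, chr13:21547171-21635686, minus strand), the kinase that phosphorylates YAP and TAZ and is itself a target, was the least covered of the 10. It had 96 and 79 footprints, a log2 ratio of -0.33 (-0.75 to 0.10) and percentile 16.4. LATS1, its paralog, had 11 and 26 footprints, below the minimum, and SAV1, the scaffold of the upstream kinases, 24 and 60. Of 17 kinases and scaffolds of the core pathway, 12 were measured, with 4 intervals above 0, 3 below and 5 holding 0, and a median of -0.08. Over all measured genes, 18.2% of intervals lay above 0 and 22.3% below. The upstream kinases TAOK1 (275 and 389 footprints; 0.45, 0.23 to 0.68), TAOK3 (0.52, 0.039 to 0.996) and STK4 (0.28, 0.03 to 0.54) were higher, as was the membrane scaffold FRMD6 (0.13, 0.02 to 0.25). MAP4K4, which acts beside STK3 and STK4 on LATS, was lower (1145 and 952 footprints; -0.31, -0.44 to -0.19). STK3, the paralog of STK4, was at -0.53 (-0.92 to -0.13), and NF2, the membrane adaptor merlin, at -0.33 (-0.58 to -0.09). The kinases that feed LATS thus lay on both sides of 0.

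AMOTL2 (ENSG00000114019, chr3:134074716-134093436, minus strand) encodes an angiomotin that binds YAP and holds it at junctions. It had 611 and 554 footprints, at -0.19 (-0.35 to -0.02) and percentile 29.7, but the interval reached across 0 with plain totals (-0.12) and with the RPKM (-0.069). Its ratio differed from that of the paralog AMOTL1 (314 and 298 footprints) by -0.07 (-0.35 to 0.22). The remaining angiomotin, AMOT, had 123 and 101. Among 15 genes listed as binding or restraining YAP and TAZ, 12 were measured, with 4 intervals above 0, 4 below and 4 holding 0. Their median was -0.18. Over all measured genes, 18.2% of intervals lay above 0 and 22.3% below. The list does not hold restraints alone: AJUBA, a LIM protein on it, inhibits LATS kinases. AJUBA went from 185 to 303 footprints (0.66, 0.40 to 0.93). The YWHA adaptors, which hold phosphorylated YAP in the cytoplasm, were split: YWHAE was at 0.35 (0.26 to 0.45), YWHAB at 0.18 (0.11 to 0.26) and YWHAG at 0.14 (0.03 to 0.24), whereas YWHAZ was at -0.57 (-0.80 to -0.33) and YWHAQ at -0.31 (-0.38 to -0.24). Some YWHA genes have processed copies in the genome, so their counts are uncertain. PTPN14, a phosphatase that binds YAP and is also a target, was at -0.38 (-0.64 to -0.12).

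**Figure D2:**
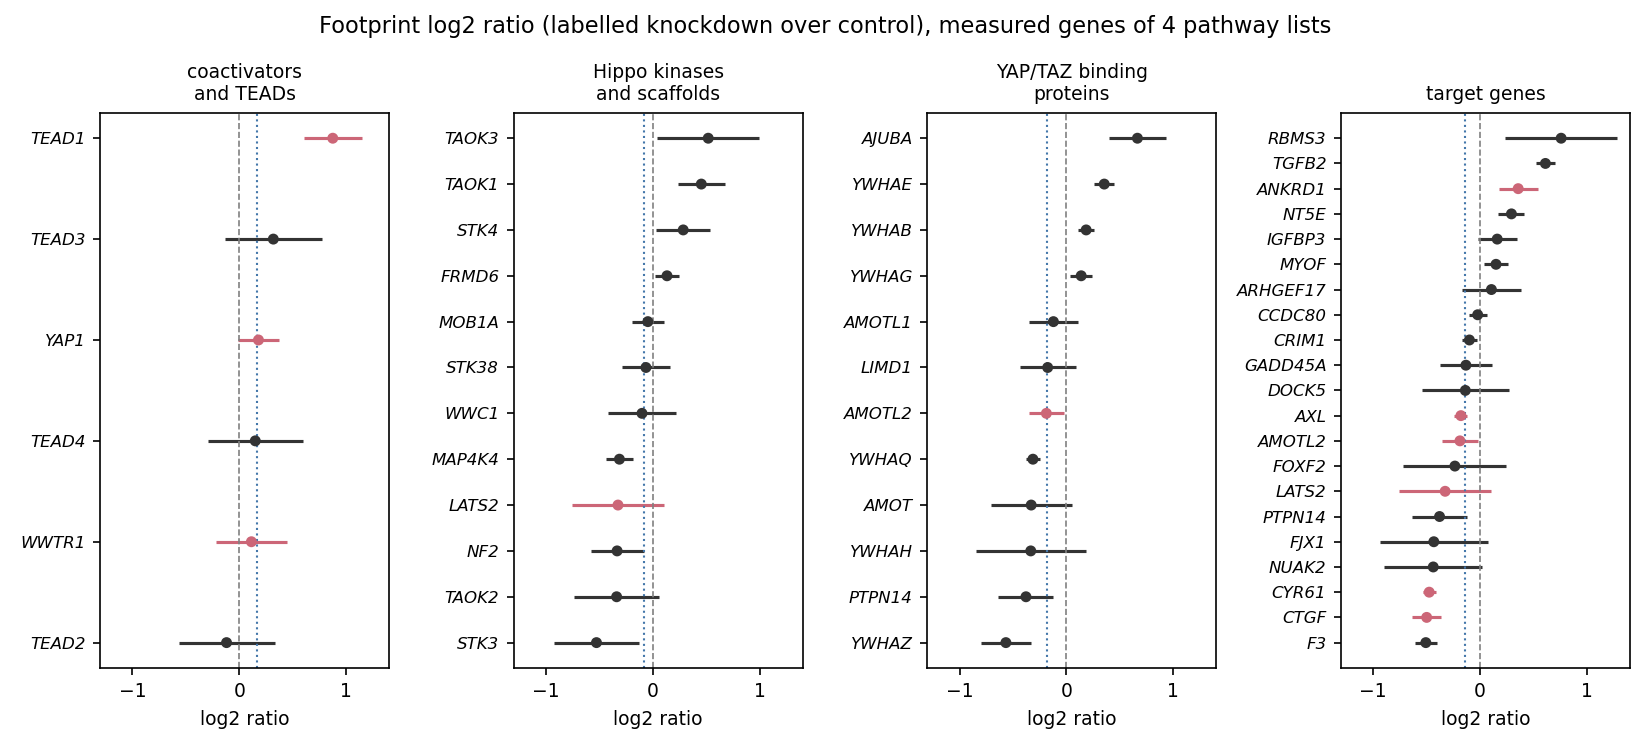
Footprint log2 ratio (x axis, library labelled ALKBH3 knockdown over control, 1 library each) of every measured gene on 4 pathway lists, with 95% counting intervals. Red marks those of the 10 genes that are on a list (THBS1 is on none), the dotted line each list's median (0.16, -0.08, -0.18 and -0.14 from left to right) and the dashed line 0, and genes lie on both sides of 0 in every list.

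The targets were examined by the proteins they encode. CTGF (now CCN2; ENSG00000118523, chr6:132269316-132272513, minus strand) and CYR61 (now CCN1; ENSG00000142871, chr1:86046444-86049645, plus strand) are secreted matricellular proteins that bind integrins, and their transcripts are among the most used readouts of YAP/TAZ activity. CTGF had 1014 footprints in the control and 741 in the library labelled ALKBH3 knockdown, a log2 ratio of -0.50 (-0.64 to -0.36) at percentile 7.02. CYR61 had 5364 and 3985 footprints, at -0.48 (-0.53 to -0.42) and percentile 7.74. The ratios of the 2 genes differed by -0.02 (-0.17 to 0.13). Over the same 9 settings as for TEAD1, CTGF ran from -0.50 to -0.38 and CYR61 from -0.48 to -0.36. NOV, also a CCN protein, had 117 and 88 footprints (-0.46, -0.85 to -0.06). With TMM the 3 measured CCN genes thus had intervals below 0. Over all measured genes 22.3% did so, and 42.6% of those with at least 1000 footprints, to which CTGF and CYR61 belong. Plain totals moved the median of all genes up by 0.07 and the RPKM by 0.12. Each shift is larger than the distance of the NOV bound from 0, so the NOV call depends on the scaling. WISP1 had 18 and 22 footprints, WISP2 0 and 2, and WISP3 0 in each.

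ANKRD1 (ENSG00000148677, chr10:92671853-92681033, minus strand), an ankyrin-repeat protein first known from heart muscle and a standard YAP/TAZ target, went the other way. It had 421 and 557 footprints, a log2 ratio of 0.36 (0.17 to 0.54) and percentile 86.3. Its interval and those of CTGF and CYR61 did not meet. Of the other muscle ankyrin-repeat genes, ANKRD2 had 1 and 1 footprints and ANKRD23 had 35 and 27.

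THBS1 (ENSG00000137801, chr15:39873294-39891667, plus strand), which encodes the secreted matrix glycoprotein thrombospondin 1, had more footprints than any other protein-coding gene in either library. It had 81052 in the control, 2.14% of all footprints (Wilson interval 2.12 to 2.15), and 86422 in the library labelled ALKBH3 knockdown, or 2.31% (2.29 to 2.32). Per length it ranked 11 in the control and 6 of 12135 in the other library. The log2 ratio of 0.05 (0.03 to 0.06) had an interval above 0 because of the large count, but lay at percentile 57.8, close to the middle of all genes and well inside their standard deviation. Other thrombospondins were sparse: THBS2 had 18 and 8 footprints, THBS3 22 and 26, and THBS4 21 and 6. COMP was not analysed here, and 4 of the 5 thrombospondin genes looked for by symbol had a row in the expression table.

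AXL (ENSG00000167601, chr19:41725108-41767671, plus strand) encodes a receptor tyrosine kinase of the TAM family, known in cancers for drug resistance and a mesenchymal state. It had 4429 and 4041 footprints, a log2 ratio of -0.18 (-0.24 to -0.12) and percentile 30.9. With the deposited RPKM the ratio was -0.060 and its interval held 0. Its sister receptor TYRO3 had 119 and 91 footprints (-0.43, -0.82 to -0.04), and the ratios of the receptors differed by 0.25 (-0.14 to 0.65). GAS6, the ligand of these receptors, had 199 and 222 footprints (0.11, -0.16 to 0.39), the ligand PROS1 5 and 22, and the receptor MERTK 0 and 2.

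The wider target list holds 22 genes, among them CTGF, CYR61, ANKRD1, AMOTL2, AXL and LATS2 but not THBS1. Of these 22, 21 were measured, with a median of -0.14. Intervals lay above 0 for 5 (23.8%, beside 18.2% of all measured genes), below for 7 (33.3%, beside 22.3%) and held 0 for 9. This balance turned over with other scalings, to 7 above and 4 below with the RPKM and to 6 above and 5 below with plain totals. The 15 measured targets outside the 10 had 4 intervals above 0 and 3 below, with a median of -0.10. TGFB2, a secreted growth factor, went from 1728 to 2727 footprints (0.61, 0.52 to 0.70). RBMS3, an RNA-binding protein, was at 0.76 (0.23 to 1.28), NT5E, the surface enzyme CD73, at 0.29 (0.17 to 0.41) and MYOF, a membrane repair protein, at 0.15 (0.04 to 0.26). F3, the tissue factor of blood clotting, went from 1834 to 1333 (-0.51, -0.61 to -0.41), and CRIM1, a transmembrane protein that binds growth factors, was at -0.10 (-0.17 to -0.03). None of the 21 measured genes was 2-fold apart, and ASAP1, the gene not measured, had 4 and 1 footprints. Among all 1614 genes with at least 1000 footprints, to which CTGF, CYR61, AXL, AMOTL2 and THBS1 belong, 24.1% of intervals lay above 0 and 42.6% below.

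The levels of the 10 genes ran from rank 11 (THBS1) to rank 7924 (LATS2) of 12033 protein-coding genes with footprints in the control. In the control the deposited RPKM was 3346 for THBS1, 704.0 for CYR61, 262.3 for AXL and 146.0 for CTGF. It was 66.7 for ANKRD1, 44.2 for YAP1, 36.3 for AMOTL2, 22.8 for WWTR1, 18.8 for TEAD1 and 4.27 for LATS2. The secreted and surface products thus held the first 4 places. WWTR1 (exact Poisson interval 19.1 to 26.9) and TEAD1 (16.1 to 22.0) were the only neighbours in this order whose counting intervals overlapped. In the library labelled ALKBH3 knockdown, TEAD1 moved from place 9 to place 7 at 37.6 RPKM (33.5 to 42.0), whose interval overlapped that of AMOTL2 at 34.7 (31.8 to 37.7). The first 6 genes kept their order. YAP1 stood above WWTR1 in each library, by 44.2 against 22.8 RPKM and by 54.4 against 26.8.

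**Figure D3:**
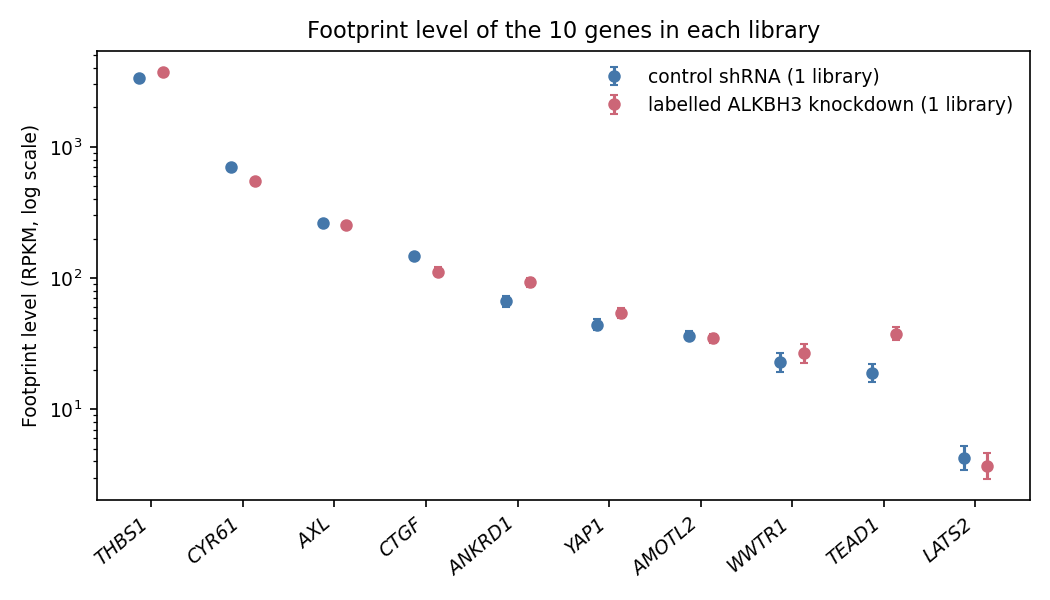
Footprint level (deposited RPKM, log axis) of the 10 genes in the control library (blue) and the library labelled ALKBH3 knockdown (red), 1 library each, with exact 95% Poisson counting intervals. Levels run from 4.27 (LATS2) to 3346 (THBS1) in the control, and the red TEAD1 point stands clear above the blue one.

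TEAD factors bind the element GGAATG, so promoter sequence was read for the genes on which the results turn. RefSeq windows of 250 bases before to 50 after an annotated start (GRCh38.p14) were found for 8 of the 10 genes, 11 windows in all, and not for TEAD1 and CYR61. GGAATG was searched on both strands (CATTCC on the printed strand is a match on the other), with no other motif. CTGF, which was lower, ANKRD1, which was higher, and THBS1, which lay near the middle, are printed 5′ to 3′ up to the base before the start, with AMOTL2 and AXL as the genes whose match lies on the other strand. Capitals mark the matches.
CTGF, chr6:131951373-131951622, minus strand: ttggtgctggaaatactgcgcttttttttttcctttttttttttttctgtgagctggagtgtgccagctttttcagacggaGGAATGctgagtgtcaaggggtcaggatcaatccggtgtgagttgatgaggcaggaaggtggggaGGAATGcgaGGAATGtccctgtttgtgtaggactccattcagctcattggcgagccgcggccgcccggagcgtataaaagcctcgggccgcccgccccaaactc
ANKRD1, chr10:90921088-90921337, minus strand: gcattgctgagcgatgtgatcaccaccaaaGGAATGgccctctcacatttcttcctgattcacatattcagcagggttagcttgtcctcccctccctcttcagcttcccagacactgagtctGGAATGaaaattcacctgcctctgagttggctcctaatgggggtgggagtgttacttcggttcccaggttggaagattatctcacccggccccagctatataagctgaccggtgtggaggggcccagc
THBS1, chr15:39580829-39581078, plus strand: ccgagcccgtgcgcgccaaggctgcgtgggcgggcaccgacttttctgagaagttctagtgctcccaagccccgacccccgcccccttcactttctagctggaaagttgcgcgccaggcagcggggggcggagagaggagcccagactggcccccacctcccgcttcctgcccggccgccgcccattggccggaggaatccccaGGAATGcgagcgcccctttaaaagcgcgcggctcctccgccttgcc
AMOTL2, chr3:134374448-134374697, minus strand: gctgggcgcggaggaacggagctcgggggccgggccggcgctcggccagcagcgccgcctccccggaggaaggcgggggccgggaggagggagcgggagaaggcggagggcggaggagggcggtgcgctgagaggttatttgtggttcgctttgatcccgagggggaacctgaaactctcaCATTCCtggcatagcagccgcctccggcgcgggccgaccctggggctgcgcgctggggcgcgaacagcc
AXL, chr19:41226505-41226754, plus strand: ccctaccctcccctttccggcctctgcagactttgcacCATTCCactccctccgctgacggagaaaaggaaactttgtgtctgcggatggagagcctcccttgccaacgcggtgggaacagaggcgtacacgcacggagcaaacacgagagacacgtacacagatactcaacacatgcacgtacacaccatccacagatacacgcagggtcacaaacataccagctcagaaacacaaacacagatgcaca

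CTGF held 3 matches, which begin 169, 104 and 95 bases before the start, the latter 2 separated by 3 bases. Of all 35116 RefSeq windows, 0.128% held at least 3. ANKRD1 held 2 matches, 220 and 128 bases before the start, where 1.37% of all windows held at least 2. THBS1 held 1 match 46 bases before the start, YAP1 1 at 162, AMOTL2 1 at 69 in the second of its windows, and AXL 1 at 212 in the second of its windows. LATS2 held 1 match that begins at base 10 after the start, and the windows of WWTR1 held none. In all, 7 of the 11 windows held a match, 63.6%, beside 14.03% of all windows and 11.6% of windows of genes measured in the footprints. On the target list, 16 of 22 genes had a window, and 9 of their 18 windows held a match. The direction of the footprint ratio did not follow the number of matches: CTGF with 3 was at -0.50, ANKRD1 with 2 at 0.36, and WWTR1 with 0 at 0.11. Of the genes with 1 match, YAP1 was at 0.18 and THBS1 at 0.05, and AXL was at -0.18, AMOTL2 at -0.19 and LATS2 at -0.33. A match describes these letters and shows no binding.

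**Figure D4:**
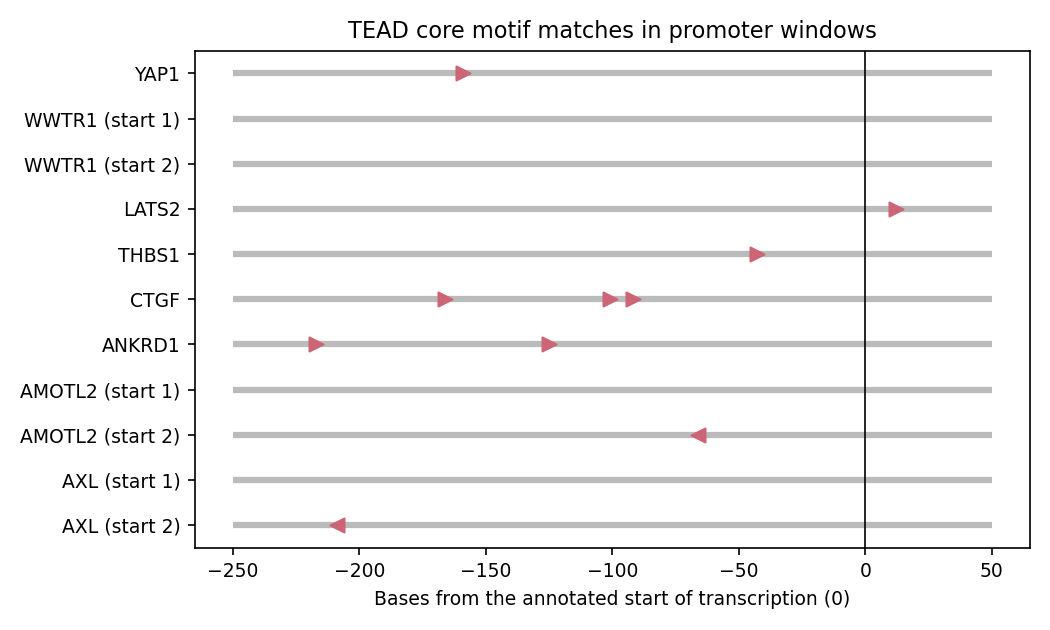
Matches to the TEAD core element (triangles, pointing along the matched strand) in 11 RefSeq promoter windows of 8 genes, by distance in bases from the annotated start of transcription. CTGF carries 3 matches and ANKRD1 2, all before the start, and the LATS2 match lies after it.

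RNA counts of the 10 genes were too few for most comparisons. The 10 genes together had 50 RNA counts in the control and 133 in the library labelled ALKBH3 knockdown. Of them, 5 had 0 control counts, which allows up to 3 counts each, and LATS2 had 0 in each library. YAP1 had 9 and 10, CYR61 6 and 7, AXL 10 and 5, CTGF 3 and 7, WWTR1 0 and 7, AMOTL2 and ANKRD1 0 and 3, and TEAD1 0 and 2. The RNA intervals of these 9 genes all held 0, so no difference was detectable at these counts. Whether the TEAD1, CTGF or CYR61 footprints moved with their RNA was not measurable. Low RNA counts were common: 0 control RNA counts were found for 46.6% of the 7044 protein-coding genes that reached 100 footprints.

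THBS1 alone passed 100 RNA counts. It had 22 and 89, a log2 ratio of 1.55 (0.89 to 2.22), and was thus among the 2.90% of 1311 genes at least 2-fold higher in RNA. The footprint ratio less the RNA ratio, a measure of translational efficiency, stood at -1.51 (-2.18 to -0.84), where 9.97% of 381 genes were at least 2-fold lower. In the authors' deposited table this ratio went from 25997 to 8895 for THBS1. All these values rest on the 22 and 89 RNA counts of the THBS1 row. With 22 control counts, THBS1 reached the minimum of 100 only through the library in which it was higher. Its place among the 2.90% and the 9.97% thus follows in part from that minimum. An antisense row inside the gene, described below, had 2488 and 2670. Whether the counts of the THBS1 row come from its mRNA was not tested. RNA counts of 235 protein-coding genes that reached 5000 footprints came to 3093 in the control and 7330 in the other library, 2.37-fold more, while the RNA totals differed 1.24-fold. The part of this shift in the THBS1 ratio was not tested. Other scalings moved the RNA median over all 1311 genes from -0.13 to between -0.24 and 0.00.

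For 5 of the 10 genes an antisense row overlaps the gene. These rows took more RNA than the genes themselves and had 0 footprints. How often this holds over all genes was not counted, so it is not shown to be particular to these genes. CTD-2033D15.1, of 652 bases inside THBS1 (chr15:39885781-39886432, minus strand), had 2488 and 2670 RNA counts beside the 22 and 89 of THBS1. Its log2 ratio was -0.34 (-0.41 to -0.26), opposite in sign to that of THBS1. RP11-864G5.3, inside YAP1, had 379 and 463 RNA counts beside the 9 and 10 of YAP1 (-0.15, -0.35 to 0.05). WWTR1-AS1 had 51 and 75, CTD-2195B23.3 inside AXL 49 and 56, and RP11-69I8.3 27 and 65, the last sharing only 428 of its 126448 bases with CTGF. The sources used here do not say how strand was treated in counting, so reads of a gene and of its antisense row cannot be told apart, and which transcript these RNA counts come from was not tested.

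**Figure D5:**
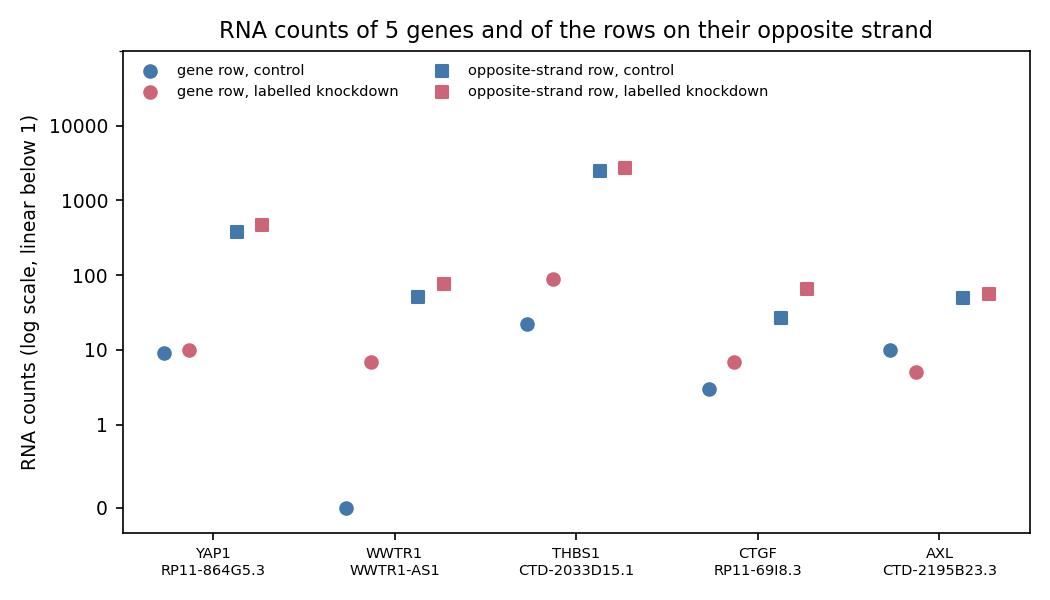
RNA counts (log axis, linear below 1) of 5 genes (circles) and of the antisense rows that overlap them (squares), in the control library (blue) and the library labelled ALKBH3 knockdown (red). Every square lies above its gene's circles, from 27 against 3 for CTGF to 2488 against 22 for THBS1 in the control.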

How the data were processed

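SNU-668 footprints and RNA were each counted in 1 control library and 1 library labelled ALKBH3 knockdown, grouped by title. Per the submitters' processing notes, FastQC, cutadapt, Bowtie, STAR and hg19 were used; the sources used here do not give the counter or how multi-mapping and strand were treated. The authors deposited whole-number counts, RPKM values and a ratio of footprint to RNA RPKM per gene. The deposited footprint RPKM scale counts by 1.05 between libraries, against 1.01 for totals.

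From the counts, log2 ratios were computed with a prior count of 0.5 and TMM-scaled totals over the whole table (edgeR 4.0.16, R 4.3.3), for genes with at least 100 reads over both libraries. Intervals (95%) and floors (3 counts) cover counting error only; reads amplified by PCR and not tagged by molecule are not independent. With 1 library per group no model was fitted. The calculation was tested on simulated counts that held counting error only, with plain totals. That test does not cover the spread between libraries or the TMM scaling. Gene identifiers matched current names for 16248 of 16692 genes. Promoter sequences are RefSeq's (GRCh38.p14). The genes, lists and alternatives were chosen with earlier results of these data known. All 10 genes were named, with up to 4 per list and direction by the interval bound nearest 0, all measured genes of small families, and genes below the minimum as counts, the latter chosen after their values were seen. Alternatives used plain totals, DESeq2 1.42.0 size factors, RPKM with 0.1 added, minimums of 20 and 1 reads, a prior of 5, a 1.5-fold minimum, list means, and the table without mitochondrially encoded genes or with protein-coding genes alone.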

Additional observations from a re-analysis of the deposited data

How the results depend on the processing

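With single libraries no replicate could be left out. No paired analysis was possible because each group holds 1 library. Over the 8 alternatives the direction of all 10 footprint ratios held. The minimums of 20 and 1 reads, which are among them, cannot move the ratio of a measured gene. The intervals of TEAD1, ANKRD1 and THBS1 stayed above 0, those of CTGF and CYR61 below it, and those of WWTR1 and LATS2 held 0 throughout. The YAP1 interval cleared 0 with plain totals (0.25), size factors (0.20) and the RPKM (0.30). That of AMOTL2 held 0 with plain totals (-0.12) and the RPKM (-0.069), and that of AXL with the RPKM (-0.060). The differences between paralogs kept their sign and call under the 4 alternatives run for them (RPKM, 20 reads, 1 read and a prior of 5). Of these, the read minimums cannot move a difference between measured genes, and a rescaling of whole libraries by RPKM nearly cancels in it. Only the prior of 5 was thus a check of these differences. THBS1 ran from 1.19 to 1.68 in RNA and from -1.56 to -1.02 in footprints over RNA. Over all genes, the RPKM gave 2082 footprint intervals above 0, 921 below and 19 genes at least 2-fold lower. With 20 reads, 201 genes were at least 2-fold higher and 111 lower in footprints, 270 higher in RNA and 265 lower in footprints over RNA. With 1 read these were 222, 144, 352 and 395, as more genes were tested. With a 1.5-fold minimum they were 345, 326, 110 and 69, by construction. Low counts limit the RNA results most: of the 10 genes, THBS1 alone reached 100 RNA counts. Why these counts were low was not tested.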
